A study of Mus musculus with 3 samples.

Results

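The cells described here were the 141 cells that the deposited annotation placed in cluster 12 of a single-cell RNA-seq map of the mouse retina, out of 15242 cells in all. The cluster was chosen by its number alone, and the 4 genes given to check it as retinal astrocytes were Pax2, Pdgfra, S100b and Gfap. The map held 3 libraries, 1 per group, from retinas of 8-week-old mice on the C57BL/6J strain. WT retinas came from mice of both sexes given base chow. The rd10-vehicle library came from female Rd10 mice given the same base chow. The rd10-TMB library came from female Rd10 mice that took tamsulosin, metoprolol and bromocriptine with their food. Rd10 mice carry a mutation of the rod phosphodiesterase gene Pde6b and lose their rods and then their cones. Tamsulosin and metoprolol block adrenergic receptors and bromocriptine activates dopamine receptors. All 3 groups lived in the dark throughout, which slows the degeneration, and per the labels each library pooled 1 retina from each of 4 mice, though the study's methods give a smaller number for the rd10 pools. With 1 pooled library per group no difference between groups had a replicate check, so no p-value is given and all intervals below are 95% intervals that cover counting error only.

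Retinal astrocytes are not born in the retina. They arise from Pax2-positive precursors in the optic stalk and optic nerve head, enter along the nerve fibre layer under the guidance of platelet-derived growth factor, which they sense through Pdgfra, and lay down the template on which the retinal vessels grow. Müller glia, the other macroglial cell, come from retinal progenitors and span all layers. Both can turn reactive when photoreceptors die, a state in which glia take up intermediate filaments, acute-phase proteins, complement and chemokines. Gfap, the best known marker of that state in Müller glia, is present in astrocytes of the healthy retina.

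The cluster held 20 WT, 88 rd10-vehicle and 33 rd10-TMB cells, with 324049, 1407321 and 563346 unique molecular identifiers (UMIs, each standing for 1 captured RNA molecule). Levels are given as UMIs of a gene per 1000000 UMIs, both summed over the cells of a library (CPM), in the order WT, rd10-vehicle and rd10-TMB throughout. The median cell held 11606, 13682 and 15912 UMIs. One WT cell carried 72893 UMIs, 22.5% of the WT sum, and values without the 5% of cells with the most UMIs, called the deepest cells, are given beside several results. Cells of Müller glia (cluster 0, 4770 cells) were shallower, with a median of 8652.5 UMIs. Barcodes occurring in more than 1 library numbered 25 over the map and 1 in this cluster. Cells with 10 or more UMIs of any of 6 genes of other retinal cells, among them Aqp4, Spc25, Cldn5, Dcn and Pcp2, numbered 0, 5 and 3, and are called mixed cells below. Sex was mixed only in the WT pool, where 11 of the 20 cells read Xist without any gene of the Y chromosome.

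The label held against the 4 markers. Pax2, the transcription factor of the optic stalk lineage, stood at 228, 127 and 192 CPM and at 0, 0 and 0 CPM in Müller glia. Of the 367 Pax2 UMIs in the whole map, 361, or 98.4%, lay in these 141 cells. The receptor gene Pdgfra stood at 1213, 1132 and 1115 CPM, against 0.904, 1.58 and 1.43 CPM in Müller glia, and 95.1% of its UMIs lay in the cluster. The calcium-binding protein gene S100b stood at 2867, 1943 and 2105 CPM, against 9.94, 9.69 and 8.52 CPM, with 91.7% of its UMIs in the cluster. Gfap, an intermediate filament gene, was less exclusive: it stood at 3743, 5149 and 4115 CPM, and 48.4% of its UMIs were here, with most others in Müller glia of the rd10 libraries. All 4 markers were detected together in 106 of the 141 cells, 3 of them in 30 cells, 2 in 4 cells and 1 in 1 cell, and no cell lacked all. With every cell thinned to 1000 UMIs, Gfap was seen in 96.5% of the cells (91.9 to 98.8%, exact Clopper-Pearson), S100b in 85.8% (78.9 to 91.1%), Pdgfra in 57.4% (48.8 to 65.7%) and Pax2 in 12.8% (7.74 to 19.4%), and unthinned in 98.6%, 99.3%, 95.7% and 77.3%. In the rod-like cluster, where these genes should be absent, the unthinned share of cells with a Gfap UMI was between 0.339% and 1.80% and that of Pdgfra between 0 and 0.402%, at median depths of 1406 to 1536 UMIs. The shares in rod-like cells of all 3 libraries lay far below those of the astrocytes.

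**Figure D1:**
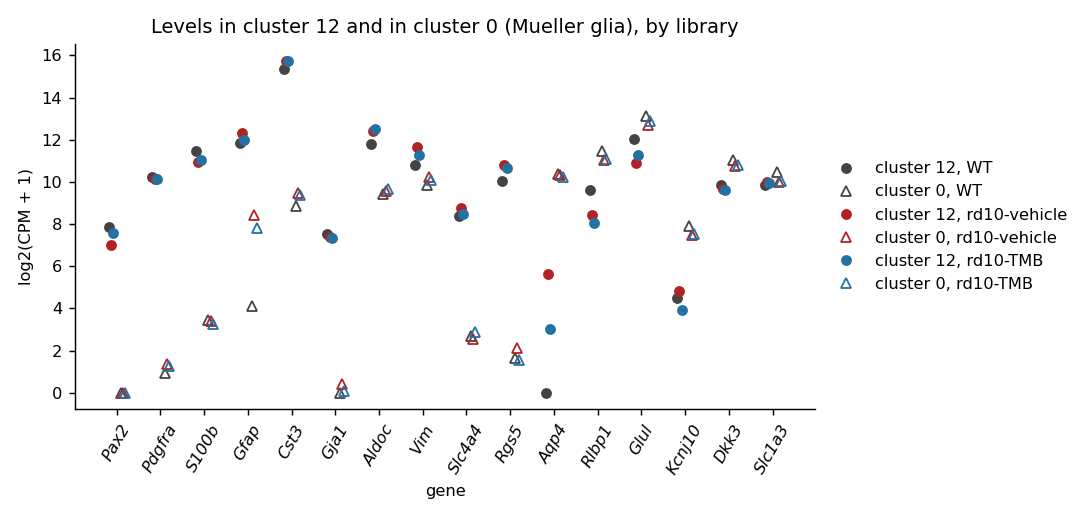
Levels of 16 genes as log2(CPM + 1) in cluster 12 (filled circles) and in Müller glia, cluster 0 (open triangles), 1 point per library (grey WT, red rd10-vehicle, blue rd10-TMB). Pax2, Pdgfra, S100b, Gja1, Slc4a4 and Rgs5 lay near 0 or far lower in Müller glia, whereas Aqp4 and Kcnj10 lay far higher there, and Slc1a3 was close in both.

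Beside Müller glia the cluster had a glial profile of its own, given here as a description since the clusters were built from these genes. Of 6770 genes with enough UMIs, 624 (9.22%) were at least 2-fold higher and 835 (12.3%) at least 2-fold lower in cluster 12. The 10 genes with the highest ratios were Pax2, H19, Sall1, Angpt4, Slc13a4, Lmo3, C230072F16Rik, Hs3st3a1, Prss35 and Scrg1. Sall1, a zinc finger transcription factor, had 165 UMIs here and 0 in Müller glia. Slc13a4, a sodium-sulfate cotransporter, had 58, 206 and 65 UMIs in the 3 libraries of the cluster and 2 in all Müller glia. The 10 lowest were Hbb-bs, Vstm2a, Aldh1a1, Gna14, Necab2, Bves, Tff2, Shisal2b, Gm17750 and Cyp26a1. The hemoglobin gene Hbb-bs had 0 UMIs here and 3275 in Müller glia, 3261 of them in rd10-vehicle, and was at least 59.2-fold lower here, but its log2 ratio after adding 1 UMI, -7.47, was -0.19 without the cell with the most UMIs of the gene in each library. Aldh1a1, an enzyme of retinoic acid synthesis, had 6 UMIs in the astrocytes and 13392 in Müller glia.

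The genes for handling ions, water and transmitters split between the glia. Of 14 such genes measured, 4 were at least 2-fold higher in the astrocytes and 7 at least 2-fold lower. Gja1, the gap junction protein connexin 43, stood at 182, 167 and 163 CPM and at 0.315 CPM or less in Müller glia. The sodium-bicarbonate cotransporter Slc4a4 stood at 333, 428 and 359 CPM and the GABA transporter Slc6a11 at 1099, 586 and 717 CPM, each at least 2-fold above Müller glia. The water channel Aqp4, a marker of brain astrocytes, had 0, 68 and 4 UMIs here, of which most in rd10-vehicle lay in mixed cells, while in Müller glia it stood at 1333, 1287 and 1193 CPM. Kcnj10, the inward rectifier potassium channel of Müller glia, stood at 21.6, 27.7 and 14.2 CPM against 238, 179 and 186 CPM. Glul, which turns glutamate into glutamine, stood at 4234, 1918 and 2469 CPM, below the 9019.8, 6581 and 7512 CPM of Müller glia but far above the rod-like cells, where it reached 154 CPM. The glutamate transporter Slc1a3 stood at 932, 1025 and 987 CPM against 1411, 1005 and 1065 CPM, a log2 ratio over all libraries of -0.08 (-0.14 to -0.02) but of -0.59 (-0.77 to -0.43) in WT alone.

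Secreted proteins set the astrocytes apart further. Of 17 secreted factor genes measured, 9 were at least 2-fold higher than in Müller glia and 2 lower, and of 12 extracellular matrix genes 7 were higher and 1 lower. Cst3, the protease inhibitor cystatin C, stood at 41330.2, 55321 and 55181 CPM, against 468, 708 and 656 CPM in Müller glia. In the rod-like cluster Cst3 stood between 2720.1 and 3961 CPM. Vegfa, the main growth signal for vessels, stood at 1253, 599.7 and 923 CPM against 211, 105 and 141 CPM. Fibronectin (Fn1) stood at 1228, 561 and 589 CPM against 5.72, 11.8 and 8.23 CPM, and the proteoglycan gene Bcan at 89.5, 52.6 and 88.8 CPM against 2.41, 0.270 and 0.298 CPM. Angpt4, a ligand of the endothelial receptor Tek, had 250 UMIs in 45 of the 141 cells and 1 UMI in all Müller glia. The neurotrophin receptor Ntrk2 stood at 1006, 860.5 and 864 CPM, against 10.5, 5.18 and 3.58 CPM.

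Transcription factors of the retinal and the optic stalk lineage were both read. Vax1, which patterns the optic stalk, had 5, 30 and 15 UMIs here and stood at 0.298 CPM or less in Müller glia, and Vax2 stood at 64.8, 32.7 and 47.9 CPM against 17.2, 17.1 and 13.6 CPM. The eye field genes were present too: Six3 stood at 756, 578 and 454 CPM against 508, 504 and 499 CPM, and Rax at 312, 281 and 359 CPM against 605, 559 and 535 CPM. Pax6, by contrast, stood at 108, 88.1 and 69.2 CPM against 761, 598 and 603 CPM, more than 2-fold lower. Sox9, shared by both glia, stood at 898, 625 and 611 CPM against 497, 534 and 507 CPM, and Id4, an inhibitor of basic helix-loop-helix factors, at 528, 428 and 504 CPM against 38.9, 19.8 and 32.2 CPM. The cyclin gene Ccnd2 stood at 364, 367 and 392 CPM against 3.92, 18.7 and 16.6 CPM.

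Markers of other cells were low. The 6 microglial genes measured summed to 0, 2.84 and 1.78 CPM with 3 of 6 at 0, the 3 oligodendrocyte genes to between 4.97 and 12.4 CPM with 2 of 3 at 0, and the 1 oligodendrocyte precursor gene in the map to 3.09 CPM at most. The amacrine list summed to between 24.9 and 37.0 CPM, the ganglion cell list to between 44.8 and 65.7 CPM, and the cone list to between 30.9 and 48.3 CPM. The pigment cell list summed to between 10.7 and 33.9 CPM with 4 of 6 at 0, and the lens list to at most 7.82 CPM. The Schwann cell list, whose Egr2 is also an immediate-early gene, summed to between 272 and 318 CPM. Rod genes summed to 315, 156 and 785 CPM, bipolar genes to 111, 107 and 263 CPM, endothelial genes to 6.17, 117 and 0 CPM, and fibroblast genes to 58.6, 220 and 140 CPM. In mixed cells lay part of these last 4 sums, as given for single genes further on. Among mural genes Rgs5, used as a pericyte marker, was an exception: it stood at 1046, 1808 and 1635 CPM in the astrocytes and was seen in 18 of 20 WT, 71 of 88 rd10-vehicle and 32 of 33 rd10-TMB cells, while Pdgfrb, another pericyte gene, had 0, 11 and 2 UMIs. The mural list summed to 1049, 1831 and 1642 CPM.

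The astrocyte share of the captured cells differed between the libraries. It was 20 of 4478 cells in WT, 0.447% (0.273 to 0.689%, exact Clopper-Pearson), 88 of 5952 in rd10-vehicle, 1.48% (1.19 to 1.82%), and 33 of 4812 in rd10-TMB, 0.686% (0.473 to 0.962%). The interval of rd10-vehicle lay above both others, and those of WT and rd10-TMB overlapped. With Müller glia taken out of the denominator the shares were 0.507%, 2.54% and 1.08%, and with the rod-like cells taken out 0.606%, 1.63% and 0.812%, in the same order. Per endothelial cell (cluster 11, with 137, 156 and 100 cells), a denominator without photoreceptors or Müller glia, the astrocytes numbered 0.146, 0.564 and 0.330. The order was the same per cell of cluster 14, at 1, 3.52 and 1.5, and of cluster 15, at 1.54, 2.51 and 2.06. Per cell of cluster 13, which had 6 WT cells, WT stood highest, at 3.33, 1.69 and 1.1. A share of dissociated cells depends on how many cells of each type survive, and the Müller glia share also differed between these libraries, so the share is no count of astrocytes per retina.

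**Figure D2:**
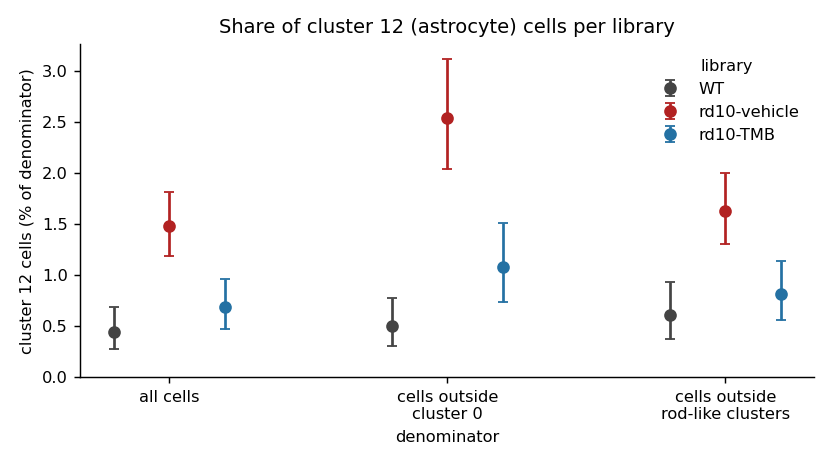
Cluster 12 cells as a percent of 3 denominators, 1 point per library with its exact Clopper-Pearson 95% interval (counting error only). In each denominator rd10-vehicle lay highest, at 1.48%, 2.54% and 1.63%, and its interval did not touch those of WT.

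The comparison of rd10-vehicle with WT asks what dying photoreceptors go along with in these cells. Genes of the reactive state were higher in rd10-vehicle. Of 10 measured genes of the pan-reactive astrocyte list, 7 were at least 2-fold higher (Lcn2, S1pr3, Cxcl10, Cd44, Osmr, Cp and Serpina3n) and 0 were lower, against 2.81% higher and 3.12% lower of all 4769 genes tested. Lcn2 and S1pr3 met the minimum of UMIs, summed over both libraries, through rd10-vehicle alone. That minimum favours such genes, so the count alone is no evidence of direction. The median log2 ratio of the list was 1.24, also with Lcn2 at its bound, beside -0.12 over all genes. Serpina3n, a secreted protease inhibitor, stood at 201, 1754 and 1131 CPM and was seen in 6 of 20 WT, 85 of 88 rd10-vehicle and 32 of 33 rd10-TMB cells. The WT cells were mostly without it, and both rd10 libraries had it in nearly every cell. Its log2 ratio was 3.11 (2.77 to 3.51), and 3.70 without the deepest cells. At 1000 UMIs per cell it was seen in 10.0% of the WT (1.23 to 31.7%), 71.6% of the vehicle (61.0 to 80.7%) and 54.5% of the TMB astrocytes (36.4 to 71.9%), while in rod-like cells its unthinned share was 1.98% at most.

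Lcn2, the iron-carrier binding protein lipocalin 2, had 0, 188 and 81 UMIs, in 0 of 20 WT, 37 of 88 rd10-vehicle and 12 of 33 rd10-TMB cells. WT was at 0, which at 20 cells allows up to 15% of cells to hold a UMI by the 3-count floor and up to 16.8% by the exact interval, and rd10-vehicle was at least 14.4-fold higher, taking 3 UMIs as the WT floor. The level in Müller glia was 39.8, 545 and 307 CPM, above that of the astrocytes in each library. In rod-like cells Lcn2 stood at 3.89, 10.5 and 15.8 CPM, so that the astrocyte levels of the rd10 libraries lay above that background. Cp, the copper-binding ferroxidase ceruloplasmin, stood at 1182, 2674 and 1986 CPM, a log2 ratio of 1.17 (1.03 to 1.33), and S1pr3, a sphingosine phosphate receptor, at 24.7, 121 and 101 CPM. Steap4, a metalloreductase on the same list, had 0, 41 and 23 UMIs, under the limit of 50 for counting.

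Of 12 complement genes in the map, 3 reached 50 UMIs over WT and rd10-vehicle, and all 3 were at least 2-fold higher in rd10-vehicle. Serping1 and C3 met that limit through rd10-vehicle alone, so the count is no evidence of direction. C4b, a component of the classical pathway, stood at 333, 958 and 839.6 CPM and was seen in 13 of 20 WT, 85 of 88 rd10-vehicle and 31 of 33 rd10-TMB cells, a log2 ratio of 1.51 (1.24 to 1.82). Serping1, which inhibits the first complement component, had 2, 290 and 109 UMIs, seen in 2 of 20 WT, 77 of 88 rd10-vehicle and 26 of 33 rd10-TMB cells. From 2 WT UMIs its plain ratio was 33.4-fold, and its log2 ratio after adding 1 UMI to each sum was 4.48, with an interval of 3.20 to 8.11. C3, the central component, had 0, 64 and 7 UMIs, and Srgn, a proteoglycan core protein of the A1 reactive list, 0, 101 and 42 UMIs, in 0 of 20 WT, 48 of 88 rd10-vehicle and 19 of 33 rd10-TMB cells. C3 was at least 4.91-fold higher and Srgn at least 7.75-fold higher in rd10-vehicle. Of 14 antigen presentation and interferon genes, 3 (H2-D1, H2-T23 and Irf1) were at least 2-fold higher and 0 lower, 5 were below 0, and the median log2 ratio was 0.34. Irf1, a transcription factor induced by interferon, stood at 30.9, 237 and 220.1 CPM and was seen in 4 of 20 WT, 65 of 88 rd10-vehicle and 24 of 33 rd10-TMB cells, a log2 ratio of 2.81 (2.04 to 4.01). The interferon-stimulated genes Isg15 and Ifit1 were read in WT astrocytes, at 133 and 58.6 CPM. Their log2 ratios were 0.26 (-0.19 to 0.79) and 0.27 (-0.38 to 1.12). The WT level of Ifit1 depended on the deepest cells. Its log2 ratio of rd10-TMB over WT was 1.32, and 2.36 without them.

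Chemokine and adhesion genes, a list put together after the values were seen, gave 11 of 13 genes at least 2-fold higher in rd10-vehicle. Members such as Cxcl1 and Icam1 met the UMI minimum for counting through rd10-vehicle alone, so the count is no evidence of direction. Cxcl1, which draws neutrophils, had 0, 213 and 20 UMIs, in 0 of 20 WT, 30 of 88 rd10-vehicle and 6 of 33 rd10-TMB cells, and was at least 16.3-fold higher in rd10-vehicle than in WT. The monocyte attractant Ccl2 stood at 37.0, 198 and 124 CPM, with a log2 ratio of 2.31 (1.59 to 3.39) that was 4.37 without the deepest cells, and Icam1, a ligand of leukocyte integrins, at 15.4, 198 and 146 CPM, a log2 ratio of 3.42 (2.44 to 5.31). Cxcl10, an interferon-induced chemokine, stood at 142, 509 and 197 CPM but was uneven among cells: it was seen in 6 of 20 WT, 45 of 88 rd10-vehicle and 8 of 33 rd10-TMB cells, with up to 132 UMIs in 1 cell. Nfkbia, the inhibitor and target of NF-kB, stood at 160.5, 352 and 224 CPM, and the acute-phase factor Cebpd at 1432, 3652 and 4010.0 CPM. By CPM each of these 6 genes was lowest in WT, but for Cxcl10 the log2 ratio of rd10-TMB over WT was 0.45 (-0.04 to 1.0), and -0.04 without the deepest cells. In the 16 immediate-early genes, which dissociation can induce, 3 (Atf3, Klf2 and Klf6) were at least 2-fold higher, and the list's median log2 ratio was 0.41. Klf2 had a log2 ratio of 1.43 (0.81 to 2.28), but of 0.28 without mixed cells and 0.70 without the deepest cells, and with each cell thinned to 1000 UMIs Klf2 and Klf6 were at -0.022 and -0.14. Atf3, a stress-induced factor, stood at 241, 863 and 1195 CPM with a log2 ratio of 1.83 (1.51 to 2.19) that was 3.26 without the deepest cells. Fos stood at 4360.4, 5771 and 5824 CPM, a log2 ratio of 0.40 (0.32 to 0.49). The part of dissociation in the chemokine values was not tested.

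**Figure D3:**
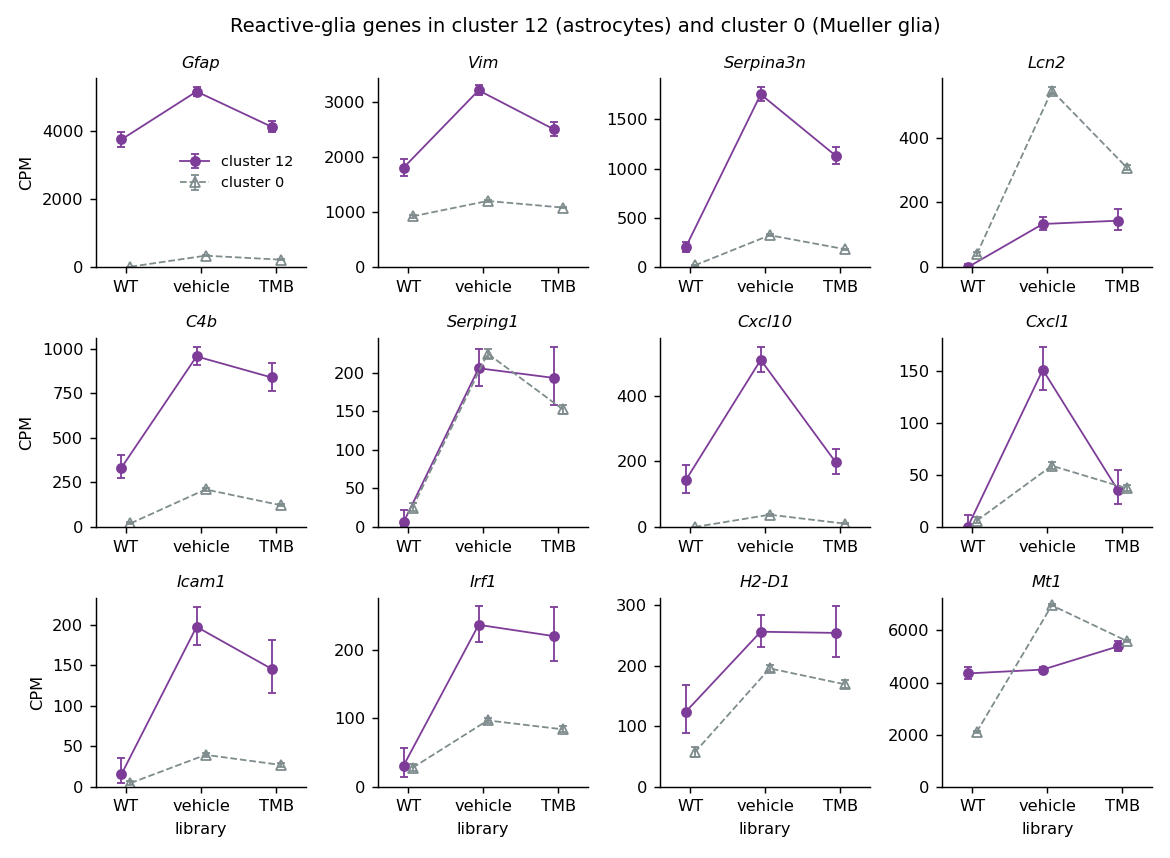
CPM of 12 genes in cluster 12 (filled circles) and Müller glia, cluster 0 (open triangles), in WT, rd10-vehicle and rd10-TMB, with exact Poisson 95% intervals (counting error only) and a separate linear axis from 0 for each gene. Serpina3n, C4b, Icam1 and Irf1 were higher in both rd10 libraries than in WT in both clusters, Lcn2 stood higher in Müller glia than in cluster 12 in every library, and Mt1 stood between 4351 and 5387 CPM in cluster 12.

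The promoter windows of these genes were read for the binding motifs of the factors that acute-phase and inflammatory genes are known to answer to, as a description of the letters only. Windows of 300 bases, from 250 bases before to 50 after the RefSeq transcription start on GRCm38.p6, were searched on both strands for TTCNNNGAA, the core bound by STAT factors, and for GGGA and TTCC set 2 bases apart, a form of the NF-kB motif. Of all 27025 genes with a window, 9.55% held the first in at least 1 window and 1.63% the second. Of the 14 chemokine and adhesion list genes with a window, 6 held TTCNNNGAA (Icam1, Ifitm3, Irf1, Maff, Sbno2 and Socs3) and 5 held the NF-kB form (Cxcl1, Cxcl10, Ifitm3, Il6 and Nfkbia). In the pan-reactive list, 2 of 13 genes held TTCNNNGAA (Gfap and Steap4) and 1 held the NF-kB form (Cxcl10). The chemokine list was put together after its values were seen. In the A1 list 1 of 10 genes held each motif, in the complement list 1 of 7 and 0 of 7, in the antigen presentation and interferon list 3 of 14 and 2 of 14, and in the clock list 2 of 9 and 0 of 9. The windows of Irf1 and Cxcl1 are shown because both genes stood higher in both rd10 libraries than in WT and each holds 1 of the motifs, which is in capitals. The Irf1 window, 1 of 2 for that gene, lies at chr11:53769764-53770063 and the Cxcl1 window at chr5:90890995-90891294, both on the plus strand, and in Cxcl1 the capitals mark 2 overlapping matches, 1 on each strand.
Irf1 promoter: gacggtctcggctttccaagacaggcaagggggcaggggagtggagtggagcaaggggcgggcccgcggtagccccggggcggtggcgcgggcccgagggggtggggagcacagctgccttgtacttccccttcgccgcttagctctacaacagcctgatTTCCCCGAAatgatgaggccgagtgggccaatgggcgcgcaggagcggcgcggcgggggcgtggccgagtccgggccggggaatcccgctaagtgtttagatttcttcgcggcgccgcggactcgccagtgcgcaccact
Cxcl1 promoter: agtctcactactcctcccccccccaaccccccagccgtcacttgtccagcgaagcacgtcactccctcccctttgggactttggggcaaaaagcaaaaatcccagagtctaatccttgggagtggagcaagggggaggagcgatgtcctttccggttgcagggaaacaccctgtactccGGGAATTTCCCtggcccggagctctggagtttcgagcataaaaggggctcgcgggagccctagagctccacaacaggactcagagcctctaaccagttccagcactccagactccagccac

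Set beside Müller glia of the same 3 libraries, the astrocytes had narrower ratios for Gfap and the metallothioneins, which stood higher in their WT cells. Gfap was 0.46 (0.37 to 0.55) on the log2 scale in the astrocytes, from a WT level of 3743 CPM, and 4.36 (4.00 to 4.80) in Müller glia, from a WT level of 16.3 CPM. The difference of the 2 log2 ratios was -3.90 (-4.29 to -3.51). In rd10-vehicle the astrocytes still stood at 5149 CPM and Müller glia at 339 CPM. Over the 4 intermediate filament genes measured, 0 were at least 2-fold higher in the astrocytes and 3 in Müller glia, with medians of 0.49 and 1.64. Vim, vimentin, stood at 1805, 3209 and 2503 CPM in the astrocytes and 923, 1202 and 1083 CPM in Müller glia, and here the astrocytes had the wider log2 ratio, by 0.45 (0.31 to 0.58). The metallothioneins, metal-binding stress proteins, were like Gfap. Mt1 stood at 4351, 4498 and 5387 CPM in the astrocytes against 2102, 6966 and 5594 CPM in Müller glia, and Mt2 at 1133, 1219 and 1212 CPM against 373, 1814 and 1312 CPM. Their median log2 ratio with Mt3 was 0.10 in the astrocytes and 1.73 in Müller glia.

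For rd10-vehicle over WT, of all 4769 genes tested, 153 were at least 2-fold higher and 71 at least 2-fold lower in Müller glia, with a median log2 ratio of -0.0081. The antigen presentation and interferon list had 3 of 14 genes at least 2-fold higher in the astrocytes and 10 of 14 in Müller glia, with medians of 0.34 and 1.26. B2m, the light chain of class I molecules, stood at 343, 457 and 543 CPM in the astrocytes and 129.5, 364 and 342 CPM in Müller glia, a difference of log2 ratios of -1.08 (-1.40 to -0.76). For the pan-reactive list 7 of 10 genes were at least 2-fold higher in each cluster, though not the same 7, with medians of 1.24 and 1.88. Cp and S1pr3 were past 2-fold in the astrocytes but not in Müller glia, at 0.12 (0.07 to 0.17) and 0.91 (0.75 to 1.08) there, and Gfap was past it in Müller glia but not in the astrocytes. The astrocyte ratio was the narrower for C4b, by a difference of -1.85 (-2.30 to -1.41), and for Serpina3n, by -0.99 (-1.49 to -0.49). Cyclin D2 (Ccnd2) had a log2 ratio of 0.00 (-0.28 to 0.31) in the astrocytes and 2.15 (1.47 to 3.18) in Müller glia. Some genes had the wider ratio in astrocytes. Cp was 1.05 (0.90 to 1.21) above Müller glia in its log2 ratio, S1pr3 1.22 (0.24 to 2.20) and Irf1 1.01 (0.10 to 1.93). Both clusters came from the same libraries, so a property of a library enters both.

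**Figure D4:**
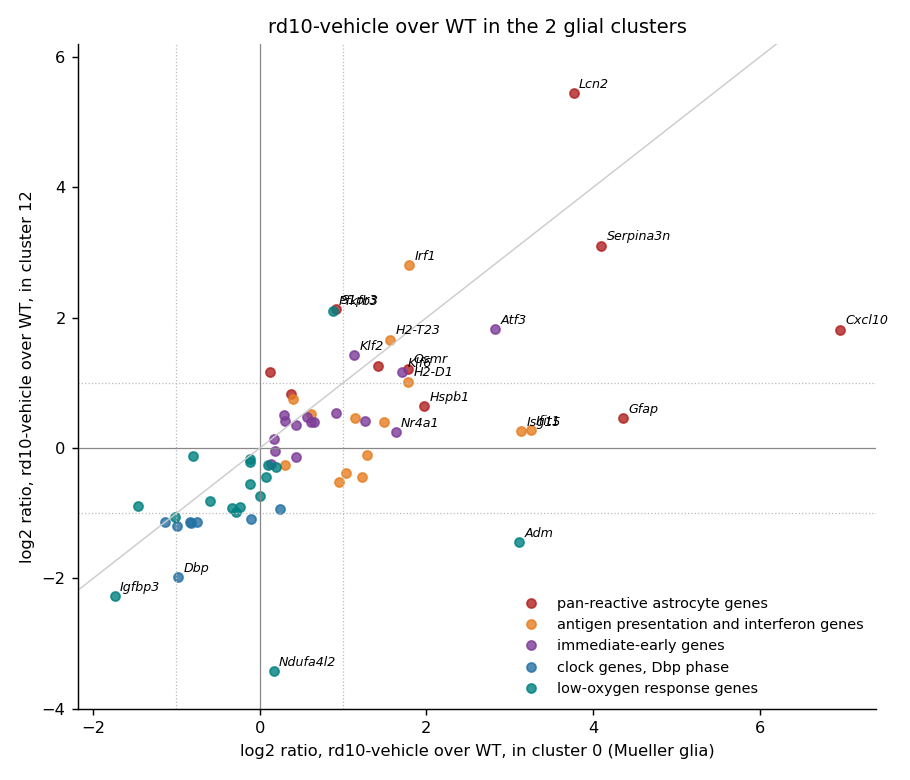
Log2 ratio of rd10-vehicle over WT in cluster 12 (vertical) against that in Müller glia, cluster 0 (horizontal), for members of 5 gene lists with at least 50 UMIs in cluster 12 over both libraries. Dotted lines mark 2-fold and the diagonal marks equal ratios. Gfap (0.46 and 4.36) and Cxcl10 (1.81 and 6.96) lay far below the diagonal, Irf1 (2.81 and 1.79) above it, and Adm (-1.44 and 3.12) had opposite signs. Lcn2 in cluster 12 and Cxcl10 in Müller glia had 0 UMIs in WT, so these positions depend on the pseudocount.

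Lower in rd10-vehicle were clock genes. Of 8 measured genes of the Dbp phase, whose transcripts peak around the same hour, 7 were at least 2-fold lower than in WT and 0 higher, with a median of -1.14, beside -0.83 and 1 gene in Müller glia. Dbp, an output transcription factor of the clock, stood at 722, 183 and 522 CPM, a log2 ratio of -1.98 (-2.24 to -1.72) for rd10-vehicle and -0.47 (-0.72 to -0.21) for rd10-TMB over WT. The rd10-vehicle library was the low one, and rd10-TMB stood between it and WT. Its relatives Tef and Hlf stood at 136, 62.5 and 76.3 CPM and 306, 139 and 224 CPM, the repressor Per1 at 71.0, 34.1 and 49.7 CPM and the nuclear receptor Nr1d2 at 154, 70.3 and 81.7 CPM. Bhlhe41, a clock repressor, stood at 525, 240.2 and 385 CPM. All of these had the order WT, rd10-TMB, rd10-vehicle from high to low. Nr1d1 stood at 333, 175 and 224 CPM in the astrocytes and 239.8, 285 and 273 CPM in Müller glia, a difference of log2 ratios of -1.19 (-1.53 to -0.84). The hour at which each retina was taken is not given in the sources used here, and its part in these values was not tested. Without the deepest cells Tef was -0.71 and Hlf -0.96, both short of 2-fold. At 1000 UMIs per cell Per1 was 0.18, with few UMIs left.

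The Per1 window is shown as the clock counterpart of the windows above. The E-box CACGTG, through which the clock proteins act, was held by 4 of the 9 list genes with a window (Bhlhe41, Ciart, Per1 and Tef) and by 8.09% of all genes. The Per1 window lies at chr11:69098699-69098998 on the plus strand of GRCm38.p6, 1 of 2 windows of the gene, and its E-box is in capitals.
Per1 promoter: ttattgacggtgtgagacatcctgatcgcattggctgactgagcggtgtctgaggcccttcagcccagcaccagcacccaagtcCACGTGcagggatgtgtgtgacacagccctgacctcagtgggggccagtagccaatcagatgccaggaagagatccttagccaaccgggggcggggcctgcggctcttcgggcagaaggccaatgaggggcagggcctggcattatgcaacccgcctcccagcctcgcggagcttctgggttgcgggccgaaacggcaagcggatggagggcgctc

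Of 19 measured genes that answer to low oxygen, in a list put together after the values were seen, 5 were at least 2-fold lower in rd10-vehicle, among them Vegfa, Adm, Ndufa4l2 and Igfbp3, and 1, Pfkfb3, at least 2-fold higher, with a median of -0.82, beside -0.12 in Müller glia. Vegfa stood at 1253, 599.7 and 923 CPM, a log2 ratio of -1.06 (-1.24 to -0.89), of -0.95 without the deepest cells, and of -0.26 with each cell thinned to 1000 UMIs. The vasodilator peptide gene Adm stood at 667, 246 and 379.9 CPM, a log2 ratio of -1.44 (-1.69 to -1.19), while in Müller glia it rested on 1 WT UMI. Ndufa4l2, a mitochondrial protein, had 41, 16 and 1 UMIs, with 27 of the WT UMIs in 1 cell. Pfkfb3, which drives glycolysis, stood at 18.5, 92.4 and 94.1 CPM, a log2 ratio of 2.11 (1.16 to 3.79) and of 0.67 after thinning. Of the 15 glycolysis genes 0 were past 2-fold in either direction.

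Some matrix, growth factor and transmitter genes were lower too. Of 10 matrix genes 3 were at least 2-fold lower (Fn1, Col18a1 and Itga6) and 0 higher, though Itga6 was -0.66 without the deepest cells. Fn1 had a log2 ratio of -1.13 (-1.31 to -0.95) in the astrocytes, or -0.36 after thinning, and 0.98 (0.37 to 1.80) in Müller glia. The growth factor Igf2 stood at 707, 252 and 241 CPM, a log2 ratio of -1.49 (-1.73 to -1.24), but of -0.26 with each cell thinned to 1000 UMIs. Glul and Rlbp1, a retinoid carrier, both more abundant in Müller glia, stood at 4234, 1918 and 2469 CPM and 778, 342 and 261 CPM, log2 ratios of -1.14 (-1.24 to -1.05) and -1.19 (-1.41 to -0.96), against -0.45 (-0.47 to -0.44) and -0.42 (-0.45 to -0.39) in Müller glia. The GABA transporter Slc6a11 stood at 1099, 586 and 717 CPM. Id2, an inhibitor of differentiation factors, stood at 876, 337 and 759.7 CPM, a log2 ratio of -1.38 (-1.59 to -1.16).

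The 4 markers that define the cells differed by less than 2-fold. Pdgfra differed by -0.10 (-0.26 to 0.06) on the log2 scale between rd10-vehicle and WT, S100b by -0.56 (-0.67 to -0.45) and Pax2 by -0.86 (-1.24 to -0.43). Aldoc, a glycolytic enzyme of astrocytes, stood at 3574, 5537 and 5808 CPM, and Gja1 at 182, 167 and 163 CPM. Of the 11 further astrocyte markers measured, 3 were past 2-fold: Cd44, an adhesion receptor, and Aqp4 higher, and Igf2 lower. Without mixed cells Aqp4 was 0.64.

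**Figure D5:**
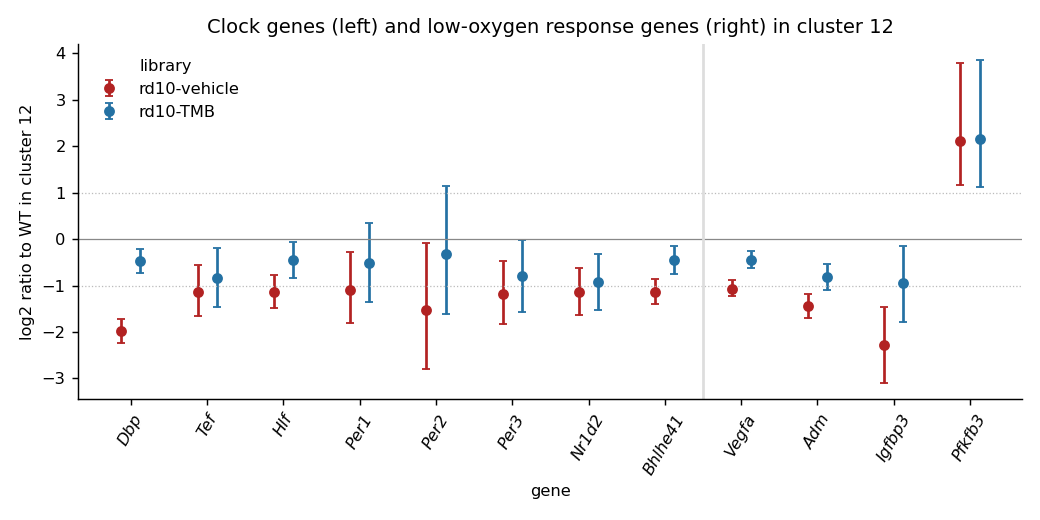
Log2 ratio to WT of rd10-vehicle (red) and rd10-TMB (blue) in cluster 12 for 8 clock genes (left of the line) and 4 low-oxygen response genes (right), with exact 95% intervals (counting error only) and dotted lines at 2-fold. For each clock gene the rd10-TMB point lay nearer to 0 than the rd10-vehicle point, as for Dbp (-0.47 and -1.98), though many intervals overlap. Per2 had 36 UMIs in the 3 libraries.

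The comparison of rd10-TMB with rd10-vehicle asks what the drug combination went along with. Of 5111 genes tested, 38 (0.743%) were at least 2-fold higher and 72 (1.41%) at least 2-fold lower in rd10-TMB, with a median log2 ratio of -0.02. Dbp was the member of the clock list past 2-fold, with a log2 ratio of 1.51 (1.26 to 1.76), and all 8 clock genes were above 0, with a median of 0.48, beside 0.53 in Müller glia. Id2 had a log2 ratio of 1.17 (0.98 to 1.37), and the glucocorticoid-responsive gene Tsc22d3 one of 1.32 (0.54 to 2.10) on 12, 30 and 30 UMIs in the 3 libraries. Lower in rd10-TMB were Cxcl1, with a log2 ratio of -2.03 (-2.83 to -1.43), Cxcl10 with -1.36 (-1.67 to -1.08) and C3 with -1.70 (-3.24 to -0.75). C3 was -2.69 without the deepest cells but -0.57, short of 2-fold, when cells above 10% mitochondrial UMIs were left out, and Cxcl1 was -0.17 with each cell thinned to 1000 UMIs. In rd10-TMB, Cxcl10 was seen in 8 of 33 cells and Cxcl1 in 6.

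For 5 other reactive genes the interval of the ratio between the rd10 libraries included 0. As rd10-TMB over rd10-vehicle, Irf1 had a log2 ratio of -0.10 (-0.41 to 0.20), Serping1 of -0.08 (-0.42 to 0.23), Srgn of 0.07 (-0.50 to 0.59), Lcn2 of 0.12 (-0.29 to 0.49) and H2-D1 of -0.01 (-0.30 to 0.27). For 4 more it lay below 0: Gfap was -0.32 (-0.39 to -0.26), Serpina3n -0.63 (-0.76 to -0.51), Vim -0.36 (-0.45 to -0.27) and C4b -0.19 (-0.34 to -0.04), each lower in rd10-TMB and short of 2-fold. The median of the pan-reactive list was -0.33, beside -0.58 in Müller glia, with 1 of 11 genes at least 2-fold lower in the astrocytes. The 8 stress genes that the study named in Müller glia, a list chosen on these samples and so no independent evidence of direction, had a median of -0.10 in the astrocytes and -0.47 in Müller glia, with 0 past 2-fold in either. Atf3, Mt1 and Lcn2 were the members above 0 in the astrocytes. Of the genes the study named as raised by TMB in Müller glia, a list also chosen on these samples, 9 were measured here. Their median was 0.41, beside 0.50 in Müller glia. Past 2-fold were 2, Dbp and the rod gene Gngt1, the latter at 0.99 without mixed cells.

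The interferon list leaned the other way. In rd10-TMB over rd10-vehicle 13 of its 15 measured genes were above 0 in the astrocytes, with a median of 0.29, against 4 of 15 and -0.12 in Müller glia, and 1 was past 2-fold. Ifit1 stood at 58.6, 73.9 and 153 CPM, a log2 ratio of 1.05 (0.62 to 1.47) that was 0.82 without the deepest cells, Bst2, a membrane tether of viruses, at 77.1, 109 and 162 CPM, and B2m at 343, 457 and 543 CPM. Ifit1 was seen in 6 of 20 WT, 37 of 88 rd10-vehicle and 16 of 33 rd10-TMB cells.

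Against WT, rd10-TMB had 56 of 2672 genes (2.10%) at least 2-fold higher and 56 (2.10%) at least 2-fold lower, with a median log2 ratio of -0.10. The pan-reactive list had 3 of 9 genes at least 2-fold higher, with a median of 0.75, the A1 list 3 of 4 and the interferon list 6 of 13. Lcn2 and Serping1 met the UMI minimum through rd10-TMB alone, so the pan-reactive and A1 counts alone are no evidence of direction. Serpina3n had a log2 ratio of 2.48 (2.13 to 2.89) over WT, C4b of 1.32 (1.03 to 1.65) and Irf1 of 2.71 (1.91 to 3.93). Of the clock genes 0 of 8 were past 2-fold. The 5 highest ratios were those of Mgp, Lcn2, Serping1, Maff and Icam1, and the 5 lowest those of Cartpt, Ecrg4, H19, Slc12a7 and Angpt4. Ecrg4, a secreted peptide precursor, stood at 444, 98.8 and 92.3 CPM, low in both rd10 libraries. The 2 comparisons with WT share the WT library of 20 cells, so a property of that library enters both.

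Some of the widest ratios rested on 1 or a few cells. For rd10-vehicle over WT the 5 highest were those of Mgp, Cxcl1, Lcn2, Dcn and Srgn. Mgp, a matrix protein, had 0, 255 and 118 UMIs, with 219 of the rd10-vehicle UMIs and all 118 of the rd10-TMB UMIs in 1 cell each, and Dcn, a fibroblast proteoglycan, had 0, 148 and 23 UMIs, each time in 1 cell. Among the 5 lowest were Ndufa4l2, Cyp26b1, Igfbp3 and Ecrg4. Cyp26b1, which breaks down retinoic acid, stood at 133, 18.5 and 92.3 CPM. For rd10-TMB over rd10-vehicle the 5 highest included the bipolar gene Pcp2 and the rod genes Gngt1, Pdc and Pde6g. Of the 53 Pcp2 UMIs in rd10-TMB 47 lay in 1 cell. Without mixed cells the log2 ratio was -0.25 for Pcp2, -0.18 for Pde6g, 0.99 for Gngt1 and 1.92 for Pdc, which thus stayed past 2-fold. The 5 lowest were Cartpt, Cldn5, Flt1, Matn2 and Aqp4. Cldn5 and Flt1 are endothelial, and 53 of the 57 Cldn5 UMIs lay in 1 rd10-vehicle cell. Matn2, a matrix adaptor, had 0, 65 and 3 UMIs, in 22 rd10-vehicle cells.

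A few genes were on or off from cell to cell. Cartpt, a neuropeptide precursor, was seen in 2 of 20 WT, 10 of 88 rd10-vehicle and 3 of 33 rd10-TMB cells, with up to 792 UMIs in 1 cell, and its sums were 305, 2255 and 37 UMIs. Glycam1, a secreted mucin-like protein, had 56, 1965 and 280 UMIs in 5 of 20 WT, 49 of 88 rd10-vehicle and 15 of 33 rd10-TMB cells, a log2 ratio of 2.99 (2.63 to 3.42) for rd10-vehicle over WT and -1.49 (-1.68 to -1.31) between the rd10 libraries, lower in rd10-TMB. It was picked out after its values were seen. In the rod-like cluster it had 1 UMI in all. The imprinted RNA H19 had 67, 101 and 31 UMIs in 3 of 20 WT, 16 of 88 rd10-vehicle and 6 of 33 rd10-TMB cells and 0 in Müller glia.

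The receptors that tamsulosin, metoprolol and bromocriptine act on were scarcely read in these cells. Of the 9 alpha1- and beta-adrenergic and dopamine receptor genes in the map, 4 were at 0 in the astrocytes, and all together gave 6, 17 and 6 UMIs. This was 18.5, 12.1 and 10.7 CPM, beside 19.9, 29.1 and 30.7 CPM in Müller glia. At this depth no difference between the libraries could be read for any of them.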

How the data were processed

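The deposited matrix held natural log values, which per the authors' methods were made with Cell Ranger on mm10, Cumulus, Scrublet to remove doublets, a minimum of 500 genes per cell, Harmony and Seurat, and the processing notes name Cell Ranger 6.0.1 and Seurat 3.2.2. Each value was ln(1 + UMIs per 10000), and with the deposited total counts per cell every one of the 32620606 entries gave a whole UMI count within 0.001. Counts were summed over the cells of a cluster and library and given per 1000000 (CPM). Ratios were log2 of CPM after adding 1 UMI to each sum, with exact conditional 95% intervals. Between libraries, a gene was counted as higher or lower at 2-fold with at least 50 UMIs over both. Beside Müller glia it needed 50 UMIs in the astrocytes, or 50 expected there from the CPM of Müller glia. The tools were Python 3.11.15, numpy 2.4.6, scipy 1.17.1, pandas 2.3.3 and matplotlib 3.10.9. No test was run, since each group had 1 library. The steps were tried on simulated Poisson sums, which lack the spread between cells that the real sums carry. The authors' tests over cells were not used. Intervals and floors (3 counts) cover counting error only. Genes named were the 4 markers, the 4 list members with the most UMIs, list members with at least 20 UMIs past 2-fold whose interval left out 1, the 10 highest and lowest ratios beside Müller glia and the 5 highest and lowest between libraries. The members and lists were chosen with earlier results of these data known, and the chemokine and low-oxygen lists after their values were seen. Promoter windows came from RefSeq on GRCm38.p6. Some genes of the lists and rankings are not reported here.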

Additional observations from a re-analysis of the deposited data

Results flagged for a closer look

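In 4 genes the ratio of rd10-vehicle over WT had opposite signs in the astrocytes and in Müller glia, each past 2-fold. The difference between the clusters was not tested, since each group had 1 library. Adm, a vasodilator peptide gene, had log2 ratios of -1.44 in the astrocytes and 3.12 in Müller glia, the latter on 1 WT UMI. Kitl, the ligand of the receptor Kit, had -1.02 and 2.46, the latter on 3 WT UMIs, and the astrocyte value was short of 2-fold in some alternatives, at -0.91 with cells of a mitochondrial share of 10% or less. Etl4 had -1.16 and 1.29. Spc25, a kinetochore gene, had 1.36 and -1.34, and without mixed cells the astrocyte value was 0.17.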

How the results depend on the processing

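No paired analysis was possible because each group has 1 library. Of 172 alternative values for the main counts, shares and differences, 125 stayed within their limits and 47 moved. With each cell thinned to 1000 UMIs, the genes past 2-fold (higher, then lower) numbered 18 and 5 for rd10-vehicle over WT, 10 and 1 for rd10-TMB over WT, 2 and 3 for rd10-TMB over rd10-vehicle, and 62 and 69 for the astrocytes over Müller glia, since fewer UMIs remain. Of 124 single-gene ratios past 2-fold that could be thinned, 92 were past 2-fold after thinning, Crym and S1pr1 of them in the opposite direction. With a minimum of 20 UMIs they numbered 334 and 533, 155 and 303, 141 and 313, and 1299 lower beside Müller glia. With a minimum of 100 they numbered 76 and 58, 31 and 21, 12 and 21, and 541 lower beside Müller glia. At a 1.5-fold limit they numbered 378 and 661, 154 and 329, 215 and 353, and 1022 and 1433. Averaging the UMI fraction over cells gave 226, 86 and 67 higher genes in the 3 library comparisons, leaving out the cell with the most UMIs of each gene 93 lower for rd10-vehicle over WT and 10 higher for rd10-TMB over rd10-vehicle, and size factors 37 lower for rd10-TMB over WT. The cause of these last shifts was not tested. Shares outside Müller glia were 2.54% and 1.08% in the rd10 libraries, by their smaller denominator. The astrocyte minus Müller glia difference of log2 ratios for rd10-vehicle over WT was -4.41 for Gfap and -1.56 for Serpina3n without the deepest cells and -4.84 for Gfap thinned, and for Vim 0.31 at a mitochondrial limit of 10%, 0.28 with the WT side kept to its Xist-positive cells without Y genes, and 0.66 averaged over cells. Of 107 single-gene ratios to WT past 2-fold, 91 stayed past 2-fold with WT kept to its Xist-positive cells without Y genes. Thinned marker shares were 12.8% for Pax2, 57.4% for Pdgfra and 85.8% for S100b. Among single-gene log2 ratios past 2-fold, 17 alternative values had the opposite sign, some of them for the same ratio. Ratios short of 2-fold also changed sign, such as Vegfa for rd10-TMB over rd10-vehicle, from 0.62 to -0.38 thinned. For rd10-vehicle over WT these were, thinned, Per1 at 0.18, Crym at -1.40, S1pr1 at -1.40, Klf2 at -0.022 and Klf6 at -0.14. For rd10-TMB over rd10-vehicle they were, without mixed cells, Pcp2 at -0.25, Pde6g at -0.18, Aqp4 at 1.0 and Abca8a at 1.04, with Pcp2 at -0.21 at the mitochondrial limit and Dcn at 0.27 averaged over cells. For rd10-TMB over WT they were Gngt1 at -0.10 without mixed cells, Cartpt at 0.11 without its top cell, and Pcp2 at -1.05 without mixed cells, -0.70 at the mitochondrial limit, -0.40 thinned and -0.55 without its top cell. With 20 WT cells, genes under the limit of 50 UMIs were left out of the main counts, and ratios given for such genes rest on few UMIs.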
